A study of Mus musculus with 15 samples.

Results

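Collagens are the main proteins of the extracellular matrix. The 44 mouse collagen genes examined here were taken from the gene table by symbol and identifier and all 44 were found among its 55471 genes. They fall into 11 fibrillar genes, 6 basement membrane (type IV) genes, 9 FACIT genes, whose products sit on the surface of fibrils, and 18 others. The study measured poly(A)-enriched RNA of cultured mouse mesenchymal cells, labelled MSCLCs, an abbreviation the labels do not spell out. Its title names bone mesenchymal stem cells, the coactivator YAP1, the growth factor IGF-1 and EWS::FLI1, a fusion protein that drives Ewing sarcoma. In experiment 1, 4 libraries carried the genotype EFPrx1MSCLC (titles 219, 221, 225 and 229) and 3 carried the genotype MSC (titles 202, 234_WT and 237_WT), which the design text calls WT. The title 202 carries no WT tag, and that library differed from 234_WT and 237_WT by 124 and 88.9 times the squared difference that counting noise gives, where those 2 differed from each other by 11.9 times. In experiment 2, the design text names ha-EFPrx1, hr-EFPrx1 and EFPrx1 cells, with the genotype labels ha (2 libraries, titles T1 and T2), hr (4 libraries, titles uns-1-1, uns-1-2, uns-2-1 and uns-2-2) and EF (2 libraries, titles 221-1 and 221-2). The letters ha and hr, Combi in the titles of ha and hr, T and uns are not explained in the sources used here, and Prx1 is not tied there to a promoter or a Cre driver. Every title of experiment 2 carries the number 221, which is also the title of 1 EFPrx1MSCLC library of experiment 1. The labels do not say whether ha, hr and EF derive from 1 culture or animal, or share a source with that library.

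The libraries held 11195371 to 26833876 counts. Libraries of experiment 1 lay far apart within each group, at 7.64 to 124 times counting noise. In experiment 2 the 2 EF libraries lay at 1.30 times that noise, the 2 libraries of each hr title line at 1.27 and 1.29 times, libraries of different hr lines at 16.3 to 17.4 times, and the 2 ha libraries at 20.7 times. The labels do not say whether libraries came from separate cultures, so p-values reflect only how far libraries of a group differ, and that spread may be technical. All 10 mesenchymal stromal markers were detected in every group. The 15 hematopoietic markers summed to 46.1 to 466 CPM (counts scaled to a common library size) in EFPrx1MSCLC libraries and 12450 to 34597 CPM in MSC libraries, and 13.7 to 48.4 CPM in all of experiment 2. Lyz2 alone held 8337, 27236 and 15523 CPM of the sums in MSC libraries 202, 234_WT and 237_WT. Levels are CPM scaled by the TMM method within each experiment, so values of different experiments are not compared.

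Collagen chains fold in threes into a triple helix. The fibrillar types I, III and V assemble together into the banded fibrils of bone, tendon and skin: type I joins products of Col1a1 and Col1a2, type III is made of Col3a1 chains alone, and types V and XI set the width of fibrils. Type IV chains form the sheet-like network of basement membranes, usually from Col4a1 and Col4a2, while the other type IV chains serve specialised membranes such as those of the kidney. Mesenchymal and osteoblast lineage cells are main producers of fibrillar collagen, and osteoblasts deposit type I collagen as the organic part of bone.

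Sequences upstream of 3 genes are shown because the results below turn on them. Col3a1 was called in 3 of the 4 comparisons and parted the hr lines in the remaining one. Col4a5 and Col4a6 lie back to back on chromosome X, 1308 bases apart on opposite strands, yet Col4a6 was close to 0 in experiment 1, where Col4a5 was called higher. RefSeq windows on GRCm38.p6 were matched by symbol for 35 of the 44 genes. The windows are chr1:45311288-45311537 on the plus strand for Col3a1 (250 bases), chrX:141474077-141474326 on the minus strand for Col4a6 (250 bases) and chrX:141475169-141475384 on the plus strand for Col4a5 (216 bases, ending where the annotated gene starts), and no annotated exon overlaps them. Capitals mark matches on either strand to 4 motifs that do not overlap there. CATTCC holds the core letters bound by TEAD factors, the DNA-binding partners of YAP1. The CCAAT box is searched as those letters. The TATA box is taken as TATAAA. The GC box is taken as GGGCGG.
Col3a1: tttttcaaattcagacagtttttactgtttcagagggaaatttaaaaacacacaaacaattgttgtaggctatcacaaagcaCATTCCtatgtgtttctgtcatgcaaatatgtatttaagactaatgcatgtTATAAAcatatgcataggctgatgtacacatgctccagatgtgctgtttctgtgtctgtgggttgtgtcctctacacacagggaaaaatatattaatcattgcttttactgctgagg
Col4a6: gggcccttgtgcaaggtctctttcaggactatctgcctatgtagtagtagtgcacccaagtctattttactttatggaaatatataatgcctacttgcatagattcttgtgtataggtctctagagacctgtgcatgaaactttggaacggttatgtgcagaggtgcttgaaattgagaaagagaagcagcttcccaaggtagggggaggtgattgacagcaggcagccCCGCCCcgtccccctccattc
Col4a5: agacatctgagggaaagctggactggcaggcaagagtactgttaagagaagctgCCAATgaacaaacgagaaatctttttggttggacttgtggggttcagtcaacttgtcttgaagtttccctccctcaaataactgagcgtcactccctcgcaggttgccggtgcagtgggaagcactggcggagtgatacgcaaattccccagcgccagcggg
The Col3a1 window held CATTCC once, 163 bases before the window's end, and TATAAA once, 112 bases before it. Among 32851 RefSeq promoter windows cut to the same 250 bases, 12.6% held CATTCC or its reverse complement and 12.4% held TATAAA or its reverse complement. The Col4a6 window held 1 GC box in reverse (CCGCCC), as did 32.7% of windows of that length in either orientation. The Col4a5 window held CCAAT once, as did 30.5% of windows cut to 216 bases in either orientation. These matches describe letters only.

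Summed collagen RNA was lower in EFPrx1MSCLC than in MSC libraries, and higher in ha than in both hr and EF libraries. In experiment 1 the 44 genes summed to 8525 to 11908 CPM in EFPrx1MSCLC libraries and 23264 to 46916 CPM in MSC libraries, without overlap. Fibrillar genes made up 43.9% of collagen CPM on average in EFPrx1MSCLC libraries (range 24.2% to 65.0%) and 89.9% in MSC libraries (88.9% to 91.3%). In experiment 2 the sum was 31476 and 24986 CPM in ha, 12087 to 13154 CPM in hr, and 14346 and 14705 CPM in EF libraries. The fibrillar share of collagen CPM was 67.4% and 72.4% in ha libraries T1 and T2, 62.7% in both libraries of hr line uns-1, 72.5% and 72.2% in line uns-2, and 61.6% and 61.7% in EF libraries. The type IV share of collagen CPM stood at 3.80% in ha, 8.51% in hr and 10.4% in EF. These sums were not tested. In bulk RNA, fewer cells that make collagen and less collagen RNA per cell cannot be told apart.

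Per kilobase of transcript, which lets genes be compared, the order of levels differed between groups. In EFPrx1MSCLC libraries Col1a2 had the highest mean with 261 ± 236 CPM per kb, followed by Col5a2 (205 ± 123 CPM per kb), the network-forming Col8a1 (170 ± 107 CPM per kb), Col6a1 (167 ± 83.9 CPM per kb) and Col4a1 (148 ± 99.3 CPM per kb; SD, n = 4), and these neighbours do not differ beyond their spread. Within libraries Col1a2 led only in 221 and 229 (512 and 405 CPM per kb). Col6a1 led in 219 (283 CPM per kb) and Col12a1 in 225 (365 CPM per kb), where Col1a2 had 13.7 and 111 CPM per kb. In MSC libraries Col3a1 (1988 ± 1325 CPM per kb), Col1a2 (1364 ± 541 CPM per kb) and Col1a1 (929 ± 20.5 CPM per kb; SD, n = 3) led. This order held within each MSC library, although the spreads across libraries overlapped. Col1a2 led in ha with 1637 ± 176 CPM per kb, followed by Col1a1 (742 ± 191 CPM per kb), Col6a1 (734 ± 362 CPM per kb) and Col3a1 (713 ± 88.1 CPM per kb; SD, n = 2), which do not differ beyond their spread. Col1a2 and Col1a1 were the leading pair in hr (711 ± 11.4 and 495 ± 7.22 CPM per kb, SD, n = 4) and in EF (683 ± 12.6 and 599 ± 11.4 CPM per kb, SD, n = 2). Next came Col6a1 in hr line uns-1 (234 and 237 CPM per kb), Col5a2 in line uns-2 (251 and 245 CPM per kb) and Col6a3 in EF (223 ± 3.76 CPM per kb, SD, n = 2).

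The comparison of EFPrx1MSCLC with MSC cells sets the EFPrx1 genotype of the design text against WT. Col14a1, Col3a1, Col5a3, Col1a1, Col11a2, Col18a1, Col15a1 and Col28a1 fell, and Col4a5, Col8a1, Col10a1, Col27a1 and Col4a4 rose. Of the 44 genes 32 passed the filter on low counts, and 5 were called higher, 8 lower and 19 not called (edgeR's quasi-likelihood test, adjusted p under 0.05). The background was 7.7% called higher and 12.1% called lower, 19.8% in all. Groups did not overlap for 2356 genes higher and 2683 lower among all 14596 tested, and for 6 and 10 of the 32 collagen genes. The median log2 fold change of the 32 genes was -0.20, against 0.04 over all genes tested.

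Among fibrillar genes, 1 rose and 4 fell of 11 tested. Col3a1, the type III chain, had 511, 161, 643 and 111 CPM in EFPrx1MSCLC libraries 219, 221, 225 and 229, against 19556, 7301 and 6321 CPM in MSC libraries 202, 234_WT and 237_WT. The groups did not overlap, and within each group 1 or 2 libraries stood well above the rest. The log2 fold change was -4.96 ± 0.81 (SE; edgeR adjusted p = 0.00716). Col1a1, the main type I chain, had 234, 1355, 320 and 1170 CPM in EFPrx1MSCLC libraries (219, 221, 225, 229) and 5632, 5389 and 5503 CPM in MSC libraries. Every EFPrx1MSCLC library lay under the MSC range, with a log2 fold change of -2.84 ± 0.66 (SE; edgeR adjusted p = 0.0246). Its partner Col1a2 had 73.2, 2737, 596 and 2167 CPM in the same EFPrx1MSCLC libraries and 10628, 5467 and 5788 CPM in MSC libraries. These groups did not overlap either, but the spread of the EFPrx1MSCLC libraries was wide and Col1a2 was not called (log2 fold change -2.39 ± 1.00, SE; edgeR adjusted p = 0.129).

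Col5a3, a minor type V chain, fell to 19.5, 18.1, 13.4 and 14.4 CPM in EFPrx1MSCLC libraries, against 138, 47.0 and 126 CPM in MSC libraries (log2 fold change -2.67 ± 0.39, SE; edgeR adjusted p = 0.00499). The major type V chain Col5a1 was not called at 617 ± 211 CPM in EFPrx1MSCLC (SD, n = 4) and 1273 ± 568 CPM in MSC libraries (SD, n = 3), with an edgeR adjusted p of 0.122. Col11a2, a type XI chain, fell by 2.41 on the log2 scale to 1.81 ± 0.43 CPM in EFPrx1MSCLC, against 9.63 ± 3.53 CPM in MSC libraries (edgeR adjusted p = 0.00842). Col27a1, a fibrillar chain of cartilage, was the 1 fibrillar gene that rose: it had 17.4, 19.2, 136 and 20.5 CPM in EFPrx1MSCLC libraries and 1.75, 4.08 and 7.35 CPM in MSC libraries. Library 225 was far above the other EFPrx1MSCLC libraries, yet all 4 exceeded the MSC range (log2 fold change 3.46 ± 0.99, SE; edgeR adjusted p = 0.0465).

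FACIT genes gave 1 call among 5 tested. Col14a1, whose product binds the surface of fibrils, had 0.41, 0.14, 0.13 and 0.17 CPM in EFPrx1MSCLC libraries 219, 221, 225 and 229, against 102, 73.4 and 36.0 CPM in MSC libraries 202, 234_WT and 237_WT. It was the collagen gene with the lowest p in this comparison (log2 fold change -8.32 ± 0.58, SE; edgeR adjusted p = 0.000581), and it passed the filter on low counts only through the MSC libraries. Col12a1, a related FACIT chain, had 401, 654, 4202 and 474 CPM in the same EFPrx1MSCLC libraries and 432, 429 and 451 CPM in MSC libraries. Apart from library 225 the groups lay side by side, and it was not called (log2 fold change 1.71 ± 0.90, SE; edgeR adjusted p = 0.208).

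Of the type IV chains 2 rose and none fell among 5 tested. Col4a5, a chain of specialised basement membranes, had 40.6, 124, 422 and 155 CPM in EFPrx1MSCLC libraries, against 37.8, 10.6 and 10.5 CPM in MSC libraries. The lowest EFPrx1MSCLC library (219) and the highest MSC library (202) almost met, and the log2 fold change was 3.23 ± 0.89 (SE; edgeR adjusted p = 0.0424). Col4a6, whose upstream window faces that of Col4a5, stayed at or under 0.51 CPM in every EFPrx1MSCLC library and at or under 0.22 CPM in every MSC library, and did not pass the filter. Col4a4 was found at 0.15 to 1.04 CPM in EFPrx1MSCLC libraries and at 0 counts in all 3 MSC libraries, which makes it at least 12.8-fold higher when 3 counts over the MSC group are taken as the floor (edgeR adjusted p = 0.0242). It passed the filter on low counts only through the EFPrx1MSCLC libraries. Col4a1 had 1548, 592, 1523 and 255 CPM in EFPrx1MSCLC libraries and 524, 335 and 261 CPM in MSC libraries. The groups overlapped and it was not called (log2 fold change 1.39 ± 0.66, SE; edgeR adjusted p = 0.169).

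Among the other classes, 2 rose and 3 fell of 11 tested. Col8a1, a network collagen of vessel walls and of the cornea, had 447, 1292, 346 and 1388 CPM in EFPrx1MSCLC libraries and 247, 51.2 and 64.4 CPM in MSC libraries (log2 fold change 2.84 ± 0.80, SE; edgeR adjusted p = 0.0451). Col10a1, the network collagen of hypertrophic cartilage, had 103, 2.73, 33.5 and 5.72 CPM in EFPrx1MSCLC libraries and 0.15 to 0.45 CPM in MSC libraries (log2 fold change 6.76 ± 1.54, SE; edgeR adjusted p = 0.0225). For both genes all EFPrx1MSCLC libraries were above the MSC range, but libraries 221 and 229 were high for Col8a1 where 219 and 225 were high for Col10a1. Only the EFPrx1MSCLC libraries carried Col10a1 past the filter on low counts. Col18a1, a basement membrane zone collagen whose C-terminal fragment is endostatin, fell to 13.4, 5.22, 0.83 and 2.08 CPM in EFPrx1MSCLC libraries, against 224, 80.2 and 90.7 CPM in MSC libraries (log2 fold change -4.61 ± 0.92, SE; edgeR adjusted p = 0.0144). Its relative Col15a1 fell by 4.34 on the log2 scale and Col28a1 fell by 4.26 (edgeR adjusted p = 0.0363 and 0.0147), and both were at or under 1.43 CPM in every EFPrx1MSCLC library. Both passed the filter on low counts only through the MSC libraries. The type VI chains Col6a1, Col6a2 and Col6a3 overlapped between the groups and were not called.

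Genes that make, process, bind or degrade collagen were listed too. Of 54 such genes 50 were tested, 2 rose and 12 fell, beside the background of 7.7% called higher and 12.1% called lower. Serpinh1, the collagen chaperone HSP47, had 581 to 609 CPM in EFPrx1MSCLC libraries and 1576 to 1842 CPM in MSC libraries, with a log2 fold change of -1.53 ± 0.25 (SE; edgeR adjusted p = 0.00705). Creb3l1, a transcription factor that activates type I collagen genes in osteoblasts, fell by 3.61 on the log2 scale (edgeR adjusted p = 0.000857). Of 15 genes that modify prolines and lysines 14 were tested and 5 fell, among them P4ha2 (log2 fold change -2.01), P3h1 (-1.24), Plod1 (-2.41) and Ppib (-1.37), with edgeR adjusted p of 0.00658, 0.00802, 0.0142 and 0.0339. The gelatinase gene Mmp2 and Ctsk, a collagen-degrading protease of osteoclasts, had log2 fold changes of -3.35 and -4.93 (edgeR adjusted p = 0.00596 and 0.011). Loxl4, a lysyl oxidase that cross-links collagen, and Itga1, a subunit of a collagen receptor, rose by 4.91 and 2.63 (edgeR adjusted p = 0.00331 and 0.0495), while the fibrillar collagen receptor subunit Itga11 fell by 2.67 (edgeR adjusted p = 0.0115).

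Beside these results stand the hematopoietic marker sums given above: in MSC libraries they were 12450, 34597 and 21874 CPM (202, 234_WT and 237_WT) and each of the 15 markers was detected in at least 1 library of each group. Of the 15, 13 were called lower and none higher. Several of the 15, such as Ptprc and C1qa, passed the filter on low counts only through the MSC libraries. Osteoclast markers summed to 0.32 to 5.78 CPM in EFPrx1MSCLC and 33.4 to 659 CPM in MSC libraries, and mitochondrial counts to 4.06% to 8.43% in EFPrx1MSCLC and 1.63% to 3.52% in MSC libraries. Their part in the differences was not tested. The 13 calls fell to 6 without library 234_WT and to 6 without library 237_WT, all 6 of them lower, and to 8 without library 221 or without library 229. Shares of all genes called in these fits are not given here. Col14a1, Col3a1, Col5a3, Col11a2, Col18a1 and Col28a1 stayed called lower in every setting in which they were tested, whereas none of the 5 genes called higher did. Col14a1 and Col28a1 had passed the filter on low counts only through the MSC libraries.

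In experiment 2 all 8 libraries were fitted together, so the 3 comparisons share libraries and one estimate of the spread. The comparison of ha with EF cells had 28 of the 44 genes tested: 14 rose, 7 fell and 7 were not called. The background over all genes was 23% called higher and 19.6% called lower, 42.6% in all. Groups did not overlap for 5580 genes higher and 5036 lower among all 13998 tested, and for 18 and 8 of the 28 collagen genes. The fibrillar genes Col27a1, Col11a1, Col3a1, Col5a3, Col11a2, Col1a2 and Col5a1 rose, as did Col12a1, Col14a1, Col20a1, Col6a1, Col6a2, Col4a6 and Col4a5. Col4a1, Col4a2, Col4a3, Col4a4, Col6a3, Col7a1 and Col10a1 fell. The median log2 fold change was 0.84, against 0.05 over all genes tested.

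Of 9 fibrillar genes tested 7 rose and none fell. Col3a1 had 4312 and 3619 CPM in ha libraries T1 and T2, against 151 and 156 CPM in EF libraries (log2 fold change 4.69 ± 1.29, SE; edgeR adjusted p = 0.0221). Col11a1, a type XI chain, had 73.4 and 158 CPM in ha and 1.77 and 1.51 CPM in EF libraries (log2 fold change 6.13 ± 1.23, SE; edgeR adjusted p = 0.00616). Col27a1 had 32.8 and 29.7 CPM in ha libraries and 0 counts in both EF libraries, so it was at least 247-fold higher in ha with a floor of 3 counts over the EF group (edgeR adjusted p = 0.00142). Col27a1 passed the filter on low counts in experiment 2 only through the ha libraries. For these 3 genes the ha libraries stood far above both EF libraries.

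Col5a3 had 81.1 and 45.1 CPM in ha and 2.75 and 2.95 CPM in EF libraries (log2 fold change 4.46 ± 0.37, SE; edgeR adjusted p = 0.000247). Col1a2 had 9422 and 8090 CPM in ha libraries and 3605 and 3700 CPM in EF libraries (log2 fold change 1.26 ± 0.14, SE; edgeR adjusted p = 0.000581). Its type I partner Col1a1 had 5202 and 3601 CPM in ha libraries and 3505 and 3601 CPM in EF libraries and was not called (log2 fold change 0.31 ± 0.18, SE; edgeR adjusted p = 0.202). The type I chains thus stood at different ratios: per kilobase, Col1a1 over Col1a2 was 0.50 and 0.40 in ha libraries, 0.68 to 0.71 in hr libraries and 0.88 in both EF libraries. Col5a1 rose by 1.09 on the log2 scale (edgeR adjusted p = 0.000604), while Col5a2 with 1402 ± 227 CPM in ha and 1168 ± 18.9 CPM in EF libraries was not called (log2 fold change 0.26; SD, n = 2 each).

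Type IV chains split. Col4a1 had 224 and 269 CPM in ha libraries and 745 and 771 CPM in EF libraries, and Col4a2 had 136 and 212 CPM in ha and 354 and 364 CPM in EF libraries. Both, which share 22 bases at their starts on opposite strands of chromosome 8, lay lower in each ha library (log2 fold changes -1.62 ± 0.13 and -1.04 ± 0.20, SE; edgeR adjusted p = 0.000247 and 0.00493). Col4a3 and Col4a4, another back-to-back pair, were rare and fell as well, to means of 0.073 and 0.40 CPM in ha, against 2.34 and 7.97 CPM in EF libraries (edgeR adjusted p = 0.0304 and 0.0486). These 2 genes passed the filter on low counts only through the EF libraries and hr line uns-1. Col4a6 had 231 and 164 CPM in ha and 83.7 and 90.6 CPM in EF libraries (log2 fold change 1.18 ± 0.19, SE; edgeR adjusted p = 0.00259). Its neighbour Col4a5 had 446 and 428 CPM in ha and 286 and 296 CPM in EF libraries (log2 fold change 0.59 ± 0.13, SE; edgeR adjusted p = 0.00812). In this experiment both genes of the pair on chromosome X were thus detected in every library, with 1.96 to 3.47 times as many CPM per kilobase for Col4a5 as for Col4a6.

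Type VI chains, which form beaded filaments around cells, split as well. Col6a1 had 4061 and 1961 CPM in ha libraries T1 and T2 and 582 and 578 CPM in EF libraries, and Col6a2 had 3034 and 1362 CPM in ha and 409 and 421 CPM in EF libraries. Library T1 stood well above T2 for both genes and both stood above EF, with log2 fold changes of 2.38 ± 0.72 and 2.41 ± 0.83 (SE; edgeR adjusted p = 0.0317 and 0.0499). The calls of both genes were also lost without T1, at log2 fold changes of 1.75 and 1.71 (edgeR adjusted p = 0.137 and 0.2). The third chain, Col6a3, had 1040.5 and 917 CPM in ha libraries and 1984 and 2032 CPM in EF libraries and fell (log2 fold change -1.04 ± 0.13, SE; edgeR adjusted p = 0.000926). Per kilobase, Col6a3 over Col6a1 was 0.12 and 0.21 in ha and 1.55 and 1.60 in EF libraries.

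FACIT and other genes added 5 calls. Col12a1 had 67.1 and 378 CPM in ha libraries and 11.5 and 13.5 CPM in EF libraries (log2 fold change 4.15 ± 0.93, SE; edgeR adjusted p = 0.00958), with T2 far above T1. Col14a1 rose to 3.10 ± 1.30 CPM in ha, against 0.13 ± 0.069 CPM in EF libraries (3 counts in all; edgeR adjusted p = 0.00329), and Col20a1 to 9.03 ± 3.05 CPM in ha, against 1.38 ± 0.075 CPM in EF libraries (SD, n = 2 each; edgeR adjusted p = 0.00323). Col14a1, too, passed the filter only through the ha libraries. Col7a1, which forms anchoring fibrils under epithelia, fell to 6.50 and 5.94 CPM in ha libraries, against 21.5 and 23.5 CPM in EF libraries (log2 fold change -1.86 ± 0.24, SE; edgeR adjusted p = 0.00107). Col10a1 fell to 0.59 ± 0.42 CPM in ha, against 3.48 ± 0.16 CPM in EF libraries (SD, n = 2 each; edgeR adjusted p = 0.0346). The ha libraries alone would not have carried Col10a1 past the filter. Col8a1 and Col18a1 were not called, with 323 and 772 CPM and 266 and 71.2 CPM in ha libraries T1 and T2.

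Of the 54 genes of collagen making, binding and degradation, 45 were tested in ha against EF: 23 rose and none fell, beside the background of 23% called higher and 19.6% called lower. The procollagen chaperone Fkbp14 and Creb3l1 rose by 3.67 and 3.79 on the log2 scale (edgeR adjusted p = 9.67e-05 and 0.00094). Loxl1 and Lox, which cross-link fibrils, rose by 1.87 and 2.22 (edgeR adjusted p = 8.19e-05 and 0.024), and Itga11 by 4.27 (edgeR adjusted p = 8.19e-05). Bmp1 and Tll1, proteases that trim the C-terminal propeptides of fibrillar procollagens, rose as well, Bmp1 to 199 ± 55.4 CPM in ha, against 42.8 ± 1.14 CPM in EF libraries (SD, n = 2 each; edgeR adjusted p = 0.00034). Tll1 passed the filter on low counts only through the ha libraries. Serpinh1 was not called, with 980 ± 89.0 CPM in ha and 1217 ± 28.6 CPM in EF libraries (SD, n = 2 each; edgeR adjusted p = 0.297). The pathway genes were examined in this fit only.

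Some markers of cell types moved in this comparison too. Of the 10 mesenchymal stromal markers 5 were called higher and 2 lower in ha against EF, beside the background of 23% called higher and 19.6% called lower. Of 8 osteoblast markers 2 were tested and 0 called. Of 8 endothelial markers 4 were tested, with 1 called higher and 3 not called. Of 7 chondrocyte markers 2 were tested and 1, Sox9, was called higher. The sum over the 7 was 35.0 to 70.7 CPM in ha and 15.7 to 16.6 CPM in EF libraries. Sox9 made up nearly all of it, with 68.5 and 32.4 CPM in T1 and T2 and 14.4 and 15.9 CPM in EF libraries. Both tested epithelial markers were called lower, with sums over 6 of 0.53 to 0.88 CPM in ha and 4.07 to 5.49 CPM in EF libraries, as were both tested myogenic markers, with sums over 6 of 1.02 to 2.65 CPM in ha and 7.97 to 9.17 CPM in EF libraries. Krt8 alone made up 3.46 and 2.63 CPM of the epithelial sums in EF libraries. The ha libraries alone would not have carried these epithelial or myogenic markers past the filter on low counts. Hematopoietic markers summed to 13.7 to 48.4 CPM in ha and 15.0 to 17.5 CPM in EF libraries, and 8 of those 15 were at 0 in both ha libraries. The part of these markers in the collagen differences was not tested.

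Because the 2 EF libraries, and the 2 libraries of each hr line, differed by little more than counting noise, they may be repeats of 1 source. With each such pair summed to 1 library, 4 of the 21 calls in ha against EF were left: Col5a3 and Col27a1 higher, Col4a1 and Col7a1 lower. All other called genes kept their direction. The share of all genes called in that fit is not given here, so the losses are not shown to be particular to collagens. Leaving out either EF library gave 12 calls.

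The comparison of hr with EF cells gave few calls. Of 28 genes tested none rose and 3 fell, Col4a1, Col4a2 and Col6a3, beside a background over all genes of 3.88% called higher and 3.07% called lower, 6.95% in all. Col6a3 had 1119, 1127, 1029 and 1034 CPM in hr libraries uns-1-1, uns-1-2, uns-2-1 and uns-2-2, against 1984 and 2032 CPM in EF libraries (log2 fold change -0.90 ± 0.11, SE; edgeR adjusted p = 0.00804). Col4a1 had 499.997, 502, 454 and 458 CPM in the same hr libraries, against 745 and 771 CPM in EF libraries (log2 fold change -0.66 ± 0.11, SE; edgeR adjusted p = 0.0191). Col4a2 had 208, 209.99, 182 and 191 CPM in hr libraries and 354 and 364 CPM in EF libraries (log2 fold change -0.86 ± 0.16, SE; edgeR adjusted p = 0.0291). In all 3 genes both hr lines lay under the EF libraries. Such lack of overlap was common, with 3199 genes higher and 3374 lower in hr among all 13998 tested, and 6 and 10 of the 28 collagen genes. With repeat libraries summed, or with either EF library left out, edgeR called 0 collagen genes (3 had an unadjusted p under 0.05 each time). Leaving out uns-2-1 or uns-2-2 gave 1 call and leaving out either ha library gave 6. With all libraries DESeq2 called 5 collagen genes and limma-voom 3. Shares of all genes called in these alternative fits are not given here.

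The hr title lines parted from each other for several collagens. EF libraries lay between the lines for Col3a1, Col6a1, Col6a2 and Col5a2, and under both lines for Col11a1. Col3a1 had 301 and 302 CPM in line uns-1 and 28.2 and 29.9 CPM in line uns-2, against 151 and 156 CPM in EF libraries, and the log2 fold change over both lines was 0.10 ± 0.97 (SE; edgeR adjusted p = 0.964). Col6a1 had 961 and 973 CPM in uns-1, 284 and 278 CPM in uns-2, and 582 and 578 CPM in EF libraries, and Col6a2 had 625 and 634 CPM in uns-1, 143 and 150.4 CPM in uns-2, and 409 and 421 CPM in EF libraries. Col5a2 lay the other way round, with 759 and 767 CPM in uns-1, 1661 and 1625 CPM in uns-2, and 1155 and 1182 CPM in EF libraries. Col3a1 and Col5a2, which parted in opposite directions, are neighbours on chromosome 1, 24614 bases apart on opposite strands. Col11a1 had 2.19 and 2.13 CPM in uns-1, 17.6 and 16.3 CPM in uns-2, and 1.77 and 1.51 CPM in EF libraries. The type I chains did not part: Col1a2 ranged from 3731 to 3871 CPM over the 4 hr libraries and Col1a1 from 2883 to 2984 CPM. The difference between the lines was not tested, since each line holds 2 libraries close to counting noise.

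With each hr line fitted on its own against EF, 6 of 28 collagen genes tested were called for uns-1 and 8 of 29 for uns-2. The background over all genes tested was 16.1% and 14.8% called, again with repeat libraries counted as replicates. Col3a1 was higher for uns-1 (log2 fold change 0.97, edgeR adjusted p = 0.011) and lower for uns-2 (log2 fold change -2.38, edgeR adjusted p = 0.00269). Col16a1 and Col23a1 were also higher for uns-1, at log2 fold changes of 0.69 and 2.94 (edgeR adjusted p = 0.0181 and 0.0161), and Col11a1 for uns-2 at 3.39 (edgeR adjusted p = 0.0138). Col4a1 and Col6a3 were lower for both lines, Col5a2 for uns-1, and Col4a2, Col4a3, Col4a4 and Col10a1 for uns-2. In the uns-2 fit, Col4a3, Col4a4 and Col10a1 passed the filter on low counts only through the EF libraries. Col4a4 had 4.30 and 5.78 CPM in uns-1, 0.36 and 0.27 CPM in uns-2, and 7.09 and 8.85 CPM in EF libraries.

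Of the 45 tested genes of collagen making, binding and degradation, 4 rose in hr against EF and none fell, beside the background of 3.88% called higher and 3.07% called lower. These were the proline hydroxylase subunits P4ha1 and P4ha2, the lysine hydroxylase Plod2 and Bmp1, with log2 fold changes of 1.05, 1.78, 1.86 and 0.74 (edgeR adjusted p = 0.035, 0.00201, 0.00639 and 0.049). P4ha2 had 215 ± 7.98 CPM in hr libraries (SD, n = 4) and 62.5 ± 0.98 CPM in EF libraries (SD, n = 2). These pathway calls were not examined with repeat libraries summed or with a library left out. Whether they would be lost there, as the collagen calls were, is not known.

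The comparison of hr with ha cells sets these groups side by side. Of 28 genes tested 2 rose, Col4a1 and Col7a1, and 16 fell, among them 8 of 9 fibrillar genes, beside a background over all genes of 17.9% called higher and 21.5% called lower, 39.4% in all. Col3a1 had 301, 302, 28.2 and 29.9 CPM in hr libraries and 4312 and 3619 CPM in ha libraries (log2 fold change -4.58 ± 0.97, SE; edgeR adjusted p = 0.00847). Col1a2 had 3829, 3871, 3776 and 3731 CPM in hr libraries and 9422 and 8090 CPM in ha libraries (log2 fold change -1.20 ± 0.11, SE; edgeR adjusted p = 0.000291). Col1a1 fell less, to 2937 ± 42.8 CPM in hr (SD, n = 4), against 4401 ± 1131 CPM in ha libraries (SD, n = 2; log2 fold change -0.58 ± 0.15, SE; edgeR adjusted p = 0.0196), and was not called with either hr line alone. For each of these genes the hr libraries lay under both ha libraries. Among all 13998 genes tested, hr and ha libraries did not overlap for 3718 genes higher and 4105 lower in hr, and for 3 and 16 of the 28 collagen genes.

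Col5a1 had 363 to 368 CPM in hr libraries and 833 and 969 CPM in ha libraries (log2 fold change -1.30 ± 0.098, SE; edgeR adjusted p = 0.000118). Col5a3, Col11a1, Col11a2 and Col27a1 had log2 fold changes of -3.44, -3.59, -3.05 and -6.01 (edgeR adjusted p = 0.000135, 0.0101, 0.00126 and 0.000874). Col12a1 had 7.16, 6.72, 22.7 and 19.3 CPM in hr libraries and 67.1 and 378 CPM in ha libraries (log2 fold change -3.99 ± 0.70, SE; edgeR adjusted p = 0.00397), and Col14a1 and Col20a1 had log2 fold changes of -4.15 and -2.32. As above, Col27a1 and Col14a1 passed the filter only through the ha libraries. Those of Col6a1, Col6a2, Col4a5 and Col4a6 were -2.27, -2.50, -0.60 and -0.94, with edgeR adjusted p of 0.0171, 0.0203, 0.00427 and 0.00318. Col8a1 was called lower although hr and ha libraries overlapped (edgeR adjusted p = 0.0444), and the call was lost under 14 of 18 alternatives. Col4a1 with a log2 fold change of 0.95 ± 0.12 and Col7a1 with 1.67 ± 0.22 (SE; edgeR adjusted p = 0.000939 and 0.00111) rose in hr. Col7a1 had 23.6, 23.0, 15.2 and 17.7 CPM in hr libraries and 6.50 and 5.94 CPM in ha libraries.

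With repeat libraries summed, 7 of the 18 calls were left: Col5a1, Col5a3, Col11a2, Col27a1, Col14a1 and Col20a1 lower and Col7a1 higher. The share of all genes called in that fit is not given here. In the main fit, of the 45 pathway genes tested 4 rose and 20 fell, beside the background of 17.9% called higher and 21.5% called lower. Of the 10 mesenchymal stromal markers 1 was called higher and 5 lower in hr against ha, and both tested epithelial markers were called higher, with sums over 6 of 8.07 to 18.6 CPM in hr and 0.53 to 0.88 CPM in ha libraries. Krt14 alone made up 14.0 and 14.3 CPM in line uns-1 and 6.41 and 6.30 CPM in line uns-2. In ha libraries T1 and T2 Krt14 was at 0 and 0.059 CPM, and it passed the filter on low counts only through the hr libraries. Krt8, at 0.58 and 0.41 CPM in T1 and T2, did not pass it through the ha libraries either. Epcam was at 0 and Cdh1 at or under 0.143 CPM in hr libraries. The part of these markers in the differences was not tested. Loxl1 had 90.1 to 101 CPM in hr libraries and 435 and 414 CPM in ha libraries (log2 fold change -2.19 ± 0.088, SE; edgeR adjusted p = 1.04e-05), and Itga11 had 3.28 to 4.70 CPM in hr libraries and 104 and 126 CPM in ha libraries (log2 fold change -4.85 ± 0.19, SE; edgeR adjusted p = 1.04e-05). Fkbp14, Bmp1 and P3h3 had log2 fold changes of -2.95, -1.48 and -1.88 (edgeR adjusted p = 4.85e-05, 0.000571 and 0.000706), and P4ha2, Plod2, Loxl4 and Ddr1 rose.

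The experiments share no library, but the number 221 is the title of 1 EFPrx1MSCLC library and stands in every title of experiment 2. The labels do not say whether these share a source, so the calls set side by side here may not be independent. Of the 8 genes called lower in EFPrx1MSCLC against MSC, 4 were called higher in ha against EF (Col3a1, Col5a3, Col11a2 and Col14a1), which is 4 of the 14 called higher there; Col1a1 and Col18a1 were not called, and Col15a1 and Col28a1 were not tested. Of the 5 genes called higher in EFPrx1MSCLC, Col27a1 and Col4a5 were called higher in ha, Col4a4 and Col10a1 lower, and Col8a1 was not called. These counts were not tested. Among all genes tested in ha against EF, 23% were called higher and 19.6% lower. The same overlap over all genes is not given here, so these counts are not shown to be particular to collagens.

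The EFPrx1MSCLC libraries also differed among themselves. Libraries 221 and 229, the closest pair of the group, had more Col1a1, Col1a2, Col5a2 and Col8a1 than 219 and 225, and less Col3a1, Col4a1, Col4a2 and Col10a1. Per kilobase, Col3a1 over Col1a1 was 2.33 and 2.14 in libraries 219 and 225, 0.13 and 0.10 in 221 and 229, and 1.22 to 3.70 in MSC libraries. Library 219 had 2.89 times as many CPM per kilobase for Col1a1 as for Col1a2, where the other 14 libraries had 0.40 to 0.89 times.

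The genes that did not pass the filter account for the rest of the 44. In experiment 1 these were 12 genes: Col4a6, Col6a4, Col6a5, Col6a6, Col9a1, Col9a2, Col13a1, Col17a1, Col19a1, Col22a1, Col25a1 and Col26a1. In experiment 2 they were 16 genes: Col2a1, Col6a4, Col6a5, Col6a6, Col8a2, Col9a1, Col9a2, Col13a1, Col15a1, Col17a1, Col19a1, Col22a1, Col24a1, Col25a1, Col26a1 and Col28a1. The cartilage gene Col9a1 had 0 counts in all 15 libraries. Col2a1, the main cartilage collagen, was at 0.051 to 9.05 CPM in EFPrx1MSCLC libraries and at 0.38 to 3.32 CPM in MSC libraries, and was not called.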

How the data were processed

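The 2 experiments (15 libraries, poly(A) enrichment) used different flowcells, per the labels. The authors deposited expected counts per gene, which are estimated counts that need not be whole. The submitters' processing notes name STAR, RSEM and the build GRCm38.p6. Tool versions, the annotation release and any use of strand were not given in the sources used here, and counts of overlapping or antisense genes may therefore be mixed. Expected counts were rounded (8.27% were not whole). Low genes were dropped with filterByExpr of edgeR (minimum count 10, grouped design) and TMM factors were applied. Each experiment was fitted alone with edgeR's quasi-likelihood test (robust, two-sided), with Benjamini-Hochberg adjustment over all genes tested and a threshold of 0.05. In a log2 fold change the first-named group is on top. CPM per kb divides by the exon length of the principal transcript in GENCODE M21, which also gave symbols, positions and distances. The software was DESeq2 1.42.0, limma 3.58.1 and edgeR 4.0.16 under R 4.3.3, and the fits were tested on simulated data. The collagen genes, their classes, the pathway and marker lists and the alternatives were chosen with earlier results of these data known. Any collagen gene could be named; values in every library are given mainly for called genes averaging 10 CPM or more in their higher group (up to 8 per comparison by p), and up to 4 called genes per pathway list are named. Folds against a group at 0 use a floor of 3 counts over the group and cover counting error only. Alternatives were other scaling, filters and tools, leaving out each library, a replicate block, fits of the compared groups alone, repeat libraries summed and each hr line alone.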

Additional observations from a re-analysis of the deposited data

Results flagged for a closer look

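In the 2 groups of 4 libraries, EFPrx1MSCLC and hr, 60 values in all (collagen genes that averaged at least 1 CPM in the group, and class sums) were examined for a sample far from the others by Dixon's criterion, which chance meets in about 1 in 20 groups. The 5 that met it were all in EFPrx1MSCLC library 225. The 4 hr libraries form 2 close pairs, so the criterion could hardly be met there and its 1 in 20 does not apply to hr. Col12a1 was at 4202 CPM in library 225 and 401 to 654 CPM in the other EFPrx1MSCLC libraries, and with it the FACIT sum was 4278 CPM there and 606 to 810 CPM in the others. Col27a1 was at 136 CPM in library 225 and 17.4 to 20.5 CPM in the others. Col8a2 was at 33.6 CPM in library 225 and 0.096 to 2.76 CPM in the others, beside 12.4 to 22.9 CPM in MSC libraries. Col24a1 was at 3.78 CPM in library 225 and 0.096 to 0.14 CPM in the others, beside 2.67 to 3.85 CPM in MSC libraries.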

How the results depend on the processing

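The count of collagen genes called in EFPrx1MSCLC against MSC (13) stayed within 1.5 times under other scaling, filters and tools and ranged from 6 to 14 as each library was left out; in hr against ha (18) that range was 17 to 19. In ha against EF (21) it ranged from 12 to 21 and in hr against EF (3) from 0 to 6. For hr against EF, DESeq2's Wald test gave 5, fitting only the groups compared 5, line uns-1 alone 6 and line uns-2 alone 8. Repeat libraries summed gave 4 (ha against EF), 0 (hr against EF) and 7 (hr against ha); that fit has fewer libraries. Deviations from the group mean correlated at -0.09 to 0.068 between libraries of different groups with the same last title number. These values cannot show whether that number pairs libraries. The hr mean pooled both lines, and the EF libraries differed by little more than counting noise. With the last title number as a replicate block 17, 3 and 17 genes were called. The fold change of Col3a1 in hr against EF reversed with limma-voom (-0.71) and line uns-2 alone (-2.38), and ranged from -0.36 to 0.45 as each library was left out; no called fold change reversed. Per kilobase, class shares moved to 66.2% (fibrillar, ha), 62.9% (fibrillar, EF), 7.49% and 9.37% (type IV, hr and EF), 2.05% (FACIT, EF), 5.98% and 25.7% (other, MSC and EF); the FACIT sum in MSC was 666 CPM of the library total. Shares of all genes called under the alternatives are given here only for the hr lines, so lost calls cannot be read as particular to collagens. The pathway and marker genes were not examined under the alternatives in any comparison, so how firm their calls are is not known. Genes under a few counts per library, such as Col4a3, Col4a4 and Col14a1 in the lower group, rest on few reads.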
